A study of Zea mays with 22 samples.

Results

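The maize genome encodes small proteins named cystatins, which bind in the active-site cleft of papain-like cysteine proteases and block them reversibly. In plants such proteases degrade protein in seeds, in ageing leaves and in dying cells, and cystatins hold them in check or act on the digestive proteases of insects. The genes described here are 3 cystatins, psei1, psei2 and psei3, and 2 cysteine proteases, ccp1 and ccp2, the last also listed as see1, a gene known in maize for its transcript in senescing leaves. They were found as every probe whose symbol or synonym was 1 of these names, which gave 5 of the 329 genes named in the platform annotation. Each gene had 1 probe except psei1, which had 2, so 6 probes were followed in each of the 2 value tables. The set of genes was chosen by their measured log2 ratios in the 2 h high and 8 h high regimes, so values and calls there are given as descriptions and support nothing.

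Total RNA from UV-B treated and control maize was set on the same 2-colour array, and 22 such arrays were compared. In 1 set the labels name 4 regimes of UV-B, each against control on 2 arrays with opposite channels, and give no organ and no measured dose. These were high for 2 h, medium for 4 h, low for 8 h and high for 8 h. In the other set the labels name UV-B for 8 h against control, on 2 arrays each for leaves of seedlings, leaves of adult plants, roots and tassels, and on 3 arrays for the immature ear. On 2 further arrays of that set adult leaves of UV-B exposed plants were compared between a CA bag and a PE bag, and on 1 array PE-covered leaves were compared between exposed and control plants. The labels of these bag and PE-covered leaf arrays give no hours of UV-B and do not explain the letters. Films of cellulose acetate let UV-B through, whereas polyester films hold it back. No label read here gives the plants behind an array, so the spread between arrays may be technical.

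Values are log2 ratios with the median of each array set to 0. A positive value is assumed to mean more RNA under UV-B than in the control, or more under CA than under PE, since the sources used here state no direction. If this is wrong for a set, higher and lower change places there. Arrays with the channels swapped were taken as turned before deposit. Several columns of the organ set repeat 1 profile up to a constant: tassel arrays 1 and 2 and ear array 1 are the same profile, as are ear arrays 2 and 3, root arrays 1 and 2, and seedling arrays 1 and 2. Its 14 columns therefore hold 9 profiles, and adult leaf and CA over PE are its groups with 2. The profile shared by the tassel arrays and ear array 1 is called tassel below. Its labels name both organs, so the organ measured is not settled. The 2 arrays of a regime had a Pearson correlation across probes, which are not independent replicates, of 0.805 at 2 h high, 0.232 at 4 h medium, -0.363 at 8 h low and 0.184 at 8 h high. For adult leaf it was -0.181 and for CA over PE 0.575. Spots with a value made up 83.0% to 91.7% of an array in the regime set and 32.7% to 99.2% in the organ set, and the number of arrays limits the precision. Every value is a ratio, so the labelled organs could not be checked against the level of their marker genes. In such tissue RNA, fewer cells of a type and less RNA per cell cannot be told apart.

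The cystatin psei2 had the widest range of the 6 probes in the regimes. At 2 h high it measured -0.39 and -0.58 on arrays 1 and 2, at 4 h medium -0.06 and -0.18, at 8 h low -0.12 and -0.34, and at 8 h high 0.50 and 0.71. It was therefore below the array median on all 6 arrays of the first 3 regimes and above it on both arrays of 8 h high. The share of all probes separated in this way was not counted. On the 2 arrays of 8 h high, 97.7% and 98.8% of probes lay below psei2, against 1.98% and 1.35% at 2 h high. The value on 8 h high array 1 rests on 2 of its 3 spots. The fitted log2 ratio was -0.48 ± 0.136 (SE, n = 2 arrays) at 2 h high, a ratio of 0.716 to control, and 0.61 ± 0.136 (SE, n = 2) at 8 h high, a ratio of 1.52. Each SE of the regime fit is pooled over its 8 arrays and over probes, and is not the spread of 2 arrays. The difference of 8 h high minus 2 h high was 1.09 ± 0.193 (SE), that of 8 h high minus 4 h medium 0.73, and that of 8 h high minus 8 h low 0.84. The 2 regimes between these extremes were tested. The value was -0.12 at 4 h medium (95% interval -0.39 to 0.16, adjusted p = 0.995, limma) and -0.23 at 8 h low (-0.50 to 0.04, adjusted p = 0.428, limma), so psei2 passed in neither.

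The cystatin psei3 was likewise lowest at 2 h high and highest at 8 h high. It measured -0.41 and -0.40 at 2 h high, 0.00 and -0.28 at 4 h medium, -0.11 and 0.10 at 8 h low, and 0.01 and 0.41 at 8 h high. Its 2 values at 2 h high lay below all 6 others and were nearly alike, though the share of all probes with such a gap was not counted. Those at 8 h high were 0.40 apart and reached into the range of 8 h low. The fitted ratio was -0.40 ± 0.139 (SE, n = 2) at 2 h high and 0.21 ± 0.139 (SE, n = 2) at 8 h high, a difference of 0.61 ± 0.196 (SE). In the tested regimes it was -0.14 at 4 h medium (95% interval -0.42 to 0.14, adjusted p = 0.995) and -0.01 at 8 h low (-0.29 to 0.27, adjusted p = 0.982, both limma).

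The 2 probes of psei1 did not measure the same pattern. The probe on source plate 23 (plates were inferred from the order of the spots) measured -0.23 and -0.27 at 2 h high, -0.01 and -0.44 at 4 h medium, 0.17 and -0.77 at 8 h low, and -0.02 and 0.12 at 8 h high. The probe on plate 39 measured -0.08 and -0.04, 0.05 and 0.13, -0.10 and 0.44, and 0.12 and -0.02 in the same order. At 8 h low the probes went opposite ways on each array, with 0.17 against -0.10 on array 1 and -0.77 against 0.44 on array 2. Across the 8 arrays their Pearson correlation was -0.78, and 0.05 without the 2 arrays farthest from the median. No single direction can be given for psei1 from these probes. The fitted value at 8 h low was -0.30 for the plate 23 probe (95% interval -0.60 to -0.01, adjusted p = 0.316, limma) and 0.17 for the plate 39 probe (-0.11 to 0.45, adjusted p = 0.596, limma).

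The protease ccp2 had the lowest fitted value of the 6 probes at 2 h high. It measured -0.75 and -0.30 at 2 h high, -0.19 and 0.21 at 4 h medium, -0.15 and 0.21 at 8 h low, and 0.05 and 0.44 at 8 h high. On 2 h high array 1, 0.094% of probes lay below it, and on array 2 13.6% did. In every regime array 2 gave the higher value, by 0.36 to 0.45, a shift that the fit carries in its term for channel orientation. The fitted ratio was -0.52 ± 0.134 (SE, n = 2) at 2 h high, 0.696 of control in linear terms. At 8 h high it was 0.24 ± 0.134 (SE, n = 2), 0.77 above 2 h high. The tested regimes gave 0.01 at 4 h medium (95% interval -0.26 to 0.28, adjusted p = 0.995) and 0.03 at 8 h low (-0.24 to 0.30, adjusted p = 0.948, both limma).

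The protease ccp1 lay above the array median on 7 of the 8 regime arrays. It measured 0.06 and 0.30 at 2 h high, 0.22 and 0.25 at 4 h medium, -0.18 and 0.26 at 8 h low, and 0.13 and 0.47 at 8 h high. The regimes overlapped, and the fitted values ran from 0.04 ± 0.136 at 8 h low to 0.30 ± 0.136 at 8 h high (SE, n = 2 each). At 4 h medium, where its arrays were closest, ccp1 was 0.23 (95% interval -0.04 to 0.51, adjusted p = 0.995, limma).

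**Figure D1:**
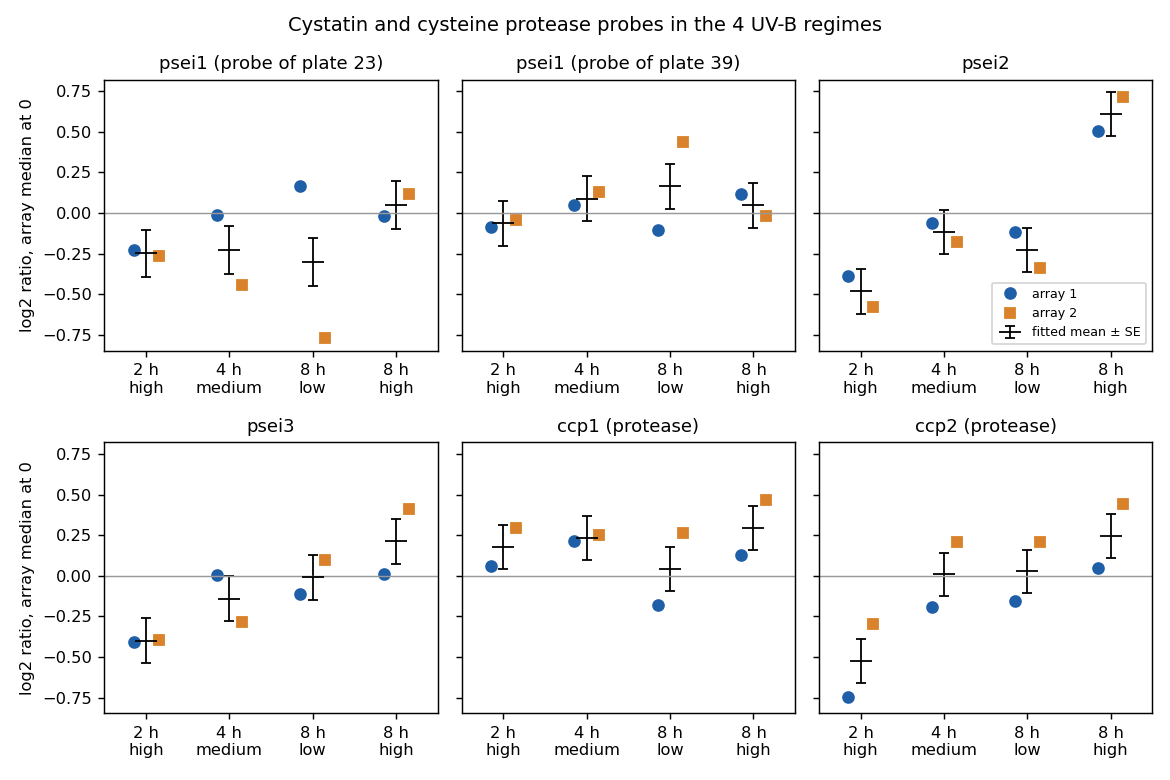
Each panel shows 1 probe, with the log2 ratio of UV-B over control (array median at 0) on the vertical axis and the 4 regimes on the horizontal axis. Circles are array 1, squares array 2, and bars the fitted mean ± SE. The probe of psei2 has both arrays above 0 at 8 h high (0.50 and 0.71) and all 6 others below it, while the 2 probes of psei1 lie on opposite sides of 0 at 8 h low.

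Counted over the 6 probes, 3 (ccp2, psei2 and psei3) were past the adjusted p threshold of 0.05 on the lower side at 2 h high, where 2.71% of the 5199 probes tested were called lower, and 0 on the higher side, where 11.0% were. On both arrays of 2 h high, 5 of the 6 lay below the array median, as did 37.8% of all probes. At 8 h high 1 of 6 (psei2) was past the threshold on the higher side, against 2.03% of 5210 probes, and 0 on the lower side (1.75%). There 4 of the 6 lay above the median on both arrays, as did 23.1% of all probes. These counts describe the contrasts that put the genes forward. The median over the 6 probes was -0.32 at 2 h high and 0.23 at 8 h high, against -0.01 and 0.00 over all probes tested. The calls at 2 h high and 8 h high were lost without either array of the same regime and without the orientation term, and that of psei3 also without any 1 array of 4 h medium or 8 h high. With plate medians set to 0 the 2 h high calls of psei2 and psei3 were lost too. With swapped arrays read the other way 0 members were past the threshold in either regime, as were 0 of all 5199 and 5210 probes. Under that reading psei2 stood at 0.095 at 2 h high and -0.11 at 8 h high.

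The regimes that played no part in choosing the genes gave no call. At 4 h medium 0 of 6 passed limma, where 0.303% of 5287 probes did. The members' fitted values ran from -0.23 to 0.23, none at an unadjusted p under 0.05. With array weights 2 passed there, ccp1 at 0.23 (adjusted p = 0.028) and the plate 23 probe of psei1 at -0.23 (adjusted p = 0.0329), but so did 681 of all 5287 probes (12.9%). At 8 h low 0 of 6 passed limma, where 0.387% of 4906 probes did, and 1 member, the plate 23 probe of psei1, had an unadjusted p under 0.05, as did 754 of all probes (15.4%). Its arrays stood at 0.17 and -0.77, and without array 1 of that regime the lone array 2 gave -0.72 (adjusted p = 0.0167), in a fit that called 20.5% of 4898 probes. At 8 h low 5 of the 6 probes had opposite signs on the 2 arrays, the exception being psei2, as did 67.0% of all probes. These signs rest on the swapped array 2 having been turned before deposit. The difference of 4 h medium minus 8 h low was called for 0 of 6 members and 0.0% of 4867 probes by limma, of which 217 had an unadjusted p under 0.05. It ran from -0.13 for psei3 to 0.19 for ccp1, with 95% intervals that together span -0.53 to 0.58.

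In the organ and bag arrays psei2 was higher than most probes in seedling leaf and in PE-covered leaf. It measured 0.55 in seedling leaf, where 91.3% of probes lay below it, and 0.40 in PE-covered leaf, against -0.25 and -0.69 on the 2 adult leaf arrays. The median of its print block (its section of the array) was 0.34 in seedling leaf and -0.04 in PE-covered leaf. For the plate 23 probe of psei1 the block median in seedling leaf was -0.39. The part of these block levels in the probe values was not tested. The tassel profile gave -0.15, the profile of ear arrays 2 and 3 gave -0.32, and root gave -0.13. CA over PE gave 0.23 and 0.08. Seedling leaf, PE-covered leaf, tassel, ear and root are single profiles with no replicate, and their order is a description. In adult leaf the fitted value was -0.47 ± 0.233 (SE, n = 2, 95% interval -0.93 to -0.01), which did not pass over all probes (adjusted p = 0.664, limma).

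The other cystatins were less spread. The plate 23 probe of psei1 lay above the array median in all 8 profiles where it had a value, from 0.04 on CA over PE array 1 to 0.37 in root. In between were 0.18 in seedling leaf, 0.10 on adult leaf array 1, 0.17 in tassel, 0.34 in ear (1 spot), 0.33 in PE-covered leaf and 0.26 on CA over PE array 2 (1 spot). In the regimes the same probe was below the median on 6 of 8 arrays. The plate 39 probe had 3 of 6 values above 0, from -0.20 in tassel to 0.48 in root, the last from 1 spot. For psei3 the values were 0.00 in seedling leaf, -0.04 and -0.40 in adult leaf, 0.17 in tassel, 0.28 in ear, 0.40 in root, 0.14 in PE-covered leaf, and -0.13 and 0.10 for CA over PE. Root thus gave the highest value for all 3 of these probes, on 1 profile each.

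The proteases went their own ways in the organs. The ccp1 probe was below the array median in 7 of 9 profiles, at -0.46 in seedling leaf, -0.59 in tassel, -0.70 in ear, -0.11 in root and -0.87 in PE-covered leaf. In tassel 1.03% of probes lay below it and in PE-covered leaf 2.02%. Its 2 replicated groups split in sign, with 0.25 and -0.26 in adult leaf and -0.34 and 0.34 for CA over PE. Both fitted values were close to 0, at -0.01 and -0.00 (SE 0.233, n = 2 each). The split and these fits rest on swapped arrays having been turned before deposit, since array 2 of each pair was swapped. Read the other way, 0 members passed in either group, as did 0 of all 1962 probes. The regime arrays were above the median for ccp1 in 7 of 8 cases, but the sign of 1 set against the other rests on the assumed direction of each. The ccp2 probe measured -0.28 in seedling leaf, 0.32 and -0.47 in adult leaf, -0.39 in tassel, -0.28 in root, 0.53 in PE-covered leaf, and -0.17 and 0.55 for CA over PE. In PE-covered leaf ccp1 and ccp2 thus stood on opposite sides of the median, 1.40 apart. The ccp2 value on CA over PE array 1 came from 2 spots at -0.62 and 0.28.

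**Figure D2:**
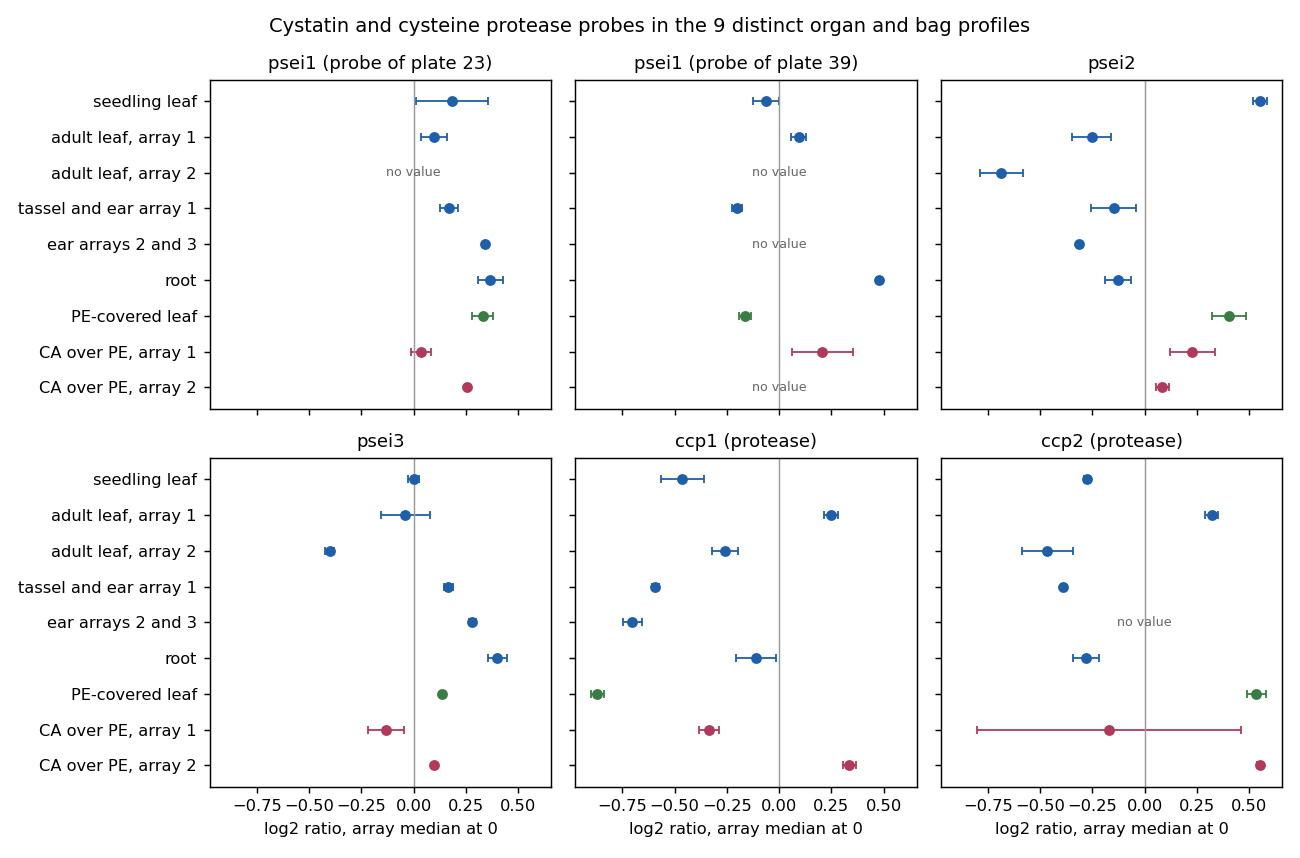
Each panel shows 1 probe in the 9 distinct profiles of the organ and bag arrays, with the log2 ratio (array median at 0, UV-B over control except in the lowest 2 rows, which are CA over PE) on the horizontal axis. Points are means of up to 3 spots and bars are ± SD of the spots, absent where 1 spot had a value or where the SD is smaller than the point. The ccp1 probe lies left of 0 in 7 of 9 profiles and the plate 23 probe of psei1 lies right of 0 in all 8 with a value.

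The tests of the organ set gave no member call. Of the 6 probes, psei2, psei3, ccp1 and ccp2 had a value on all 4 arrays of adult leaf and CA over PE, and 0 of these 4 passed limma in adult leaf (1.58% of 1962 probes did) or for CA over PE (3.62%). Among all 1962 probes 139 had an unadjusted p under 0.05 in adult leaf, psei2 among them. CA over PE gave 0.19 for ccp2, 0.15 for psei2, -0.02 for psei3 and -0.00 for ccp1, with 95% intervals that together span -0.47 to 0.65.

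Across the 8 regime arrays the cystatins psei2 and psei3 had a Pearson correlation of 0.79 (Spearman 0.74), which was 0.55 without the 2 arrays farthest from the median of psei2. For psei3 and ccp2, an inhibitor and a protease, r was 0.75 (0.37 without 2 arrays), and for psei2 and ccp2 it was 0.60 (0.33). The proteases ccp1 and ccp2 gave 0.53 (0.56). These are descriptions over 8 arrays that share their channel orientation in 2 sets of 4, and the regimes that put the genes forward are among them. In the 9 organ and bag profiles psei2 and psei3 gave 0.23, while psei3 and the plate 23 probe of psei1 gave 0.89 over 8 profiles (0.77 without 2).

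Among 281 other named genes with a value on all 8 regime arrays, the 3 whose pattern was most like that of each probe by Pearson correlation were as follows. Where a gene had several probes, only the probe with the highest r was taken. For psei2 they were PG2C (r = 0.94), the protein disulfide isomerase PDIL1-2 (0.90) and hir1 (0.90, its probe on plate 8). At 8 h high that hir1 probe measured 0.27 and 0.46, and the other, on plate 45, measured 0.41 and -0.14. For psei3 they were GB1 (0.92), LOC541942 (0.91) and PG2C again (0.90). For the plate 23 probe of psei1 they were INO1 (0.98), LOC542547 (0.95) and lip15 (0.94). Those 3 probes and the psei1 probe were all in print block 2. For the plate 39 probe they were ys1 (0.97), LOC542114 (0.91) and the ferritin gene fer1 (0.89). For ccp1 they were nrx1 (0.88), PER1 (0.87) and the enolase eno1 (0.81), and for ccp2 TCTP (0.89), LOC541901 (0.89) and LOC541622 (0.84). Without the 2 arrays farthest from the median of the probe, r was 0.27 for PDIL1-2, 0.39 for PER1, 0.39 for LOC542114 and 0.51 for fer1, the lowest 4 of these genes.

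Other proteases on the array, from a list of protease names, were mir3 (2 probes), a papain-like cysteine protease, vpe1, a vacuolar processing enzyme of the legumain type, and lon1, an ATP-dependent organelle protease. Of their 4 probes 3 were tested at 2 h high and 4 h medium and 4 at 8 h low and 8 h high, and 0 passed limma in any regime, in either direction. The mir3 probe on plate 40 measured -0.06 at 2 h high and -0.11 at 8 h high, and vpe1 measured 0.05 and 0.04. The mir3 probe on plate 7 gave 0.28 and 0.32 on the arrays of 8 h high, a fitted 0.30 that did not pass (adjusted p = 0.393, limma). None of the 3 probes fitted at 2 h high stood as low as ccp2 (-0.52), but that regime is 1 of those that put ccp2 forward. The mir3 probe of plate 7 had no fit there. In PE-covered leaf, a single profile, 3 of the 4 probes were above the median, lon1 at 0.59, vpe1 at 0.40 and mir3 of plate 7 at 0.34. The other mir3 probe, of plate 40, was at -0.14. There ccp2 was at 0.53 and ccp1 at -0.87.

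A list of other inhibitors and defence proteins matched the chitinase chn1 and hir1, a gene of the hypersensitive-induced reaction family. The chn1 probe was lower at 2 h high (-0.52 ± 0.145) and higher at 8 h high (2.95 ± 0.145, SE, n = 2 each), the same 2 regimes in which psei2 was lowest and highest. Its 8 h low value was not fitted. The 2 hir1 probes gave -0.37 and -0.06 at 2 h high and 0.37 and 0.14 at 8 h high, of which 0 passed limma. Of 7 genes matched by a leaf marker list 3 were called lower at 8 h high, as were 1.75% of all probes, with a list median of -0.28. The match PDK2 is a mitochondrial energy gene and not a leaf marker, and the list was not counted without it. At 2 h high 0 of the 7 were called (median -0.05). Of 5 floral marker genes 1 was called higher in each of these regimes. The median of the floral list was -0.28 at 2 h high and 0.12 at 8 h high. Of 5 probes of seed marker genes 2 were called higher at 2 h high and 0 at 8 h high. Over all probes 11.0% were called higher at 2 h high and 2.03% at 8 h high. At 8 h low 1 gene of the leaf list and 1 floral marker gene were called lower, as were 0.183% of all probes. The root marker list held rop1 alone (0.22 at 8 h high). Whether these marker values bear on those of the cystatins and proteases was not tested.

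At 2 h high whole source plates differed in level. Medians of the inferred plates reached 0.69 and 1.08 on plate 37 and 0.61 and 0.96 on plate 39, on arrays 1 and 2. The plate 39 probe of psei1, at -0.08 and -0.04, was therefore near the array median but had only 3 of 72 and 6 of 80 probes of its plate below it. With plate medians set to 0 its fitted value was -0.85. The probes of psei2, psei3 and ccp2 lay on plates with medians between -0.16 and -0.04, and ccp2 and psei3 were the lowest probes of their plates on array 1. With plate medians set to 0, ccp2 stood at -0.39, psei2 at -0.39 and psei3 at -0.27. In that setting the call of ccp2 was kept, while those of psei2 and psei3 were lost. It had 2 members past the threshold at 2 h high, ccp2 and a probe not called with array medians set to 0. There 9.91% of all 5199 probes were called. At 8 h high the same setting gave 0.51 for psei2.

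**Figure D3:**
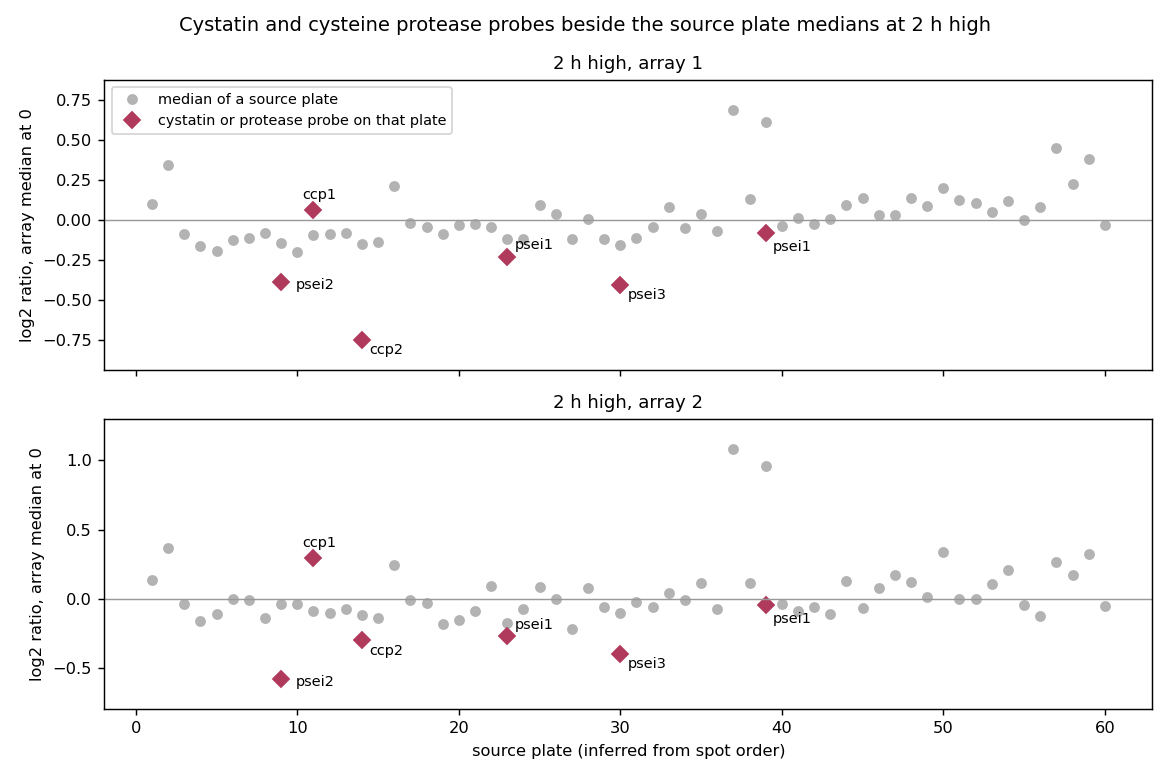
The 2 panels show the 2 h high arrays, with the source plate on the horizontal axis and the log2 ratio of UV-B over control (array median at 0) on the vertical axis. Grey points are medians of plates and diamonds are the cystatin and protease probes. Plates 37 and 39 have the highest medians on both arrays, and the psei1 probe on plate 39 lies below its plate median of 0.61 and 0.96, while psei2, psei3 and ccp2 lie below plates that are near 0.

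**Figure D4:**
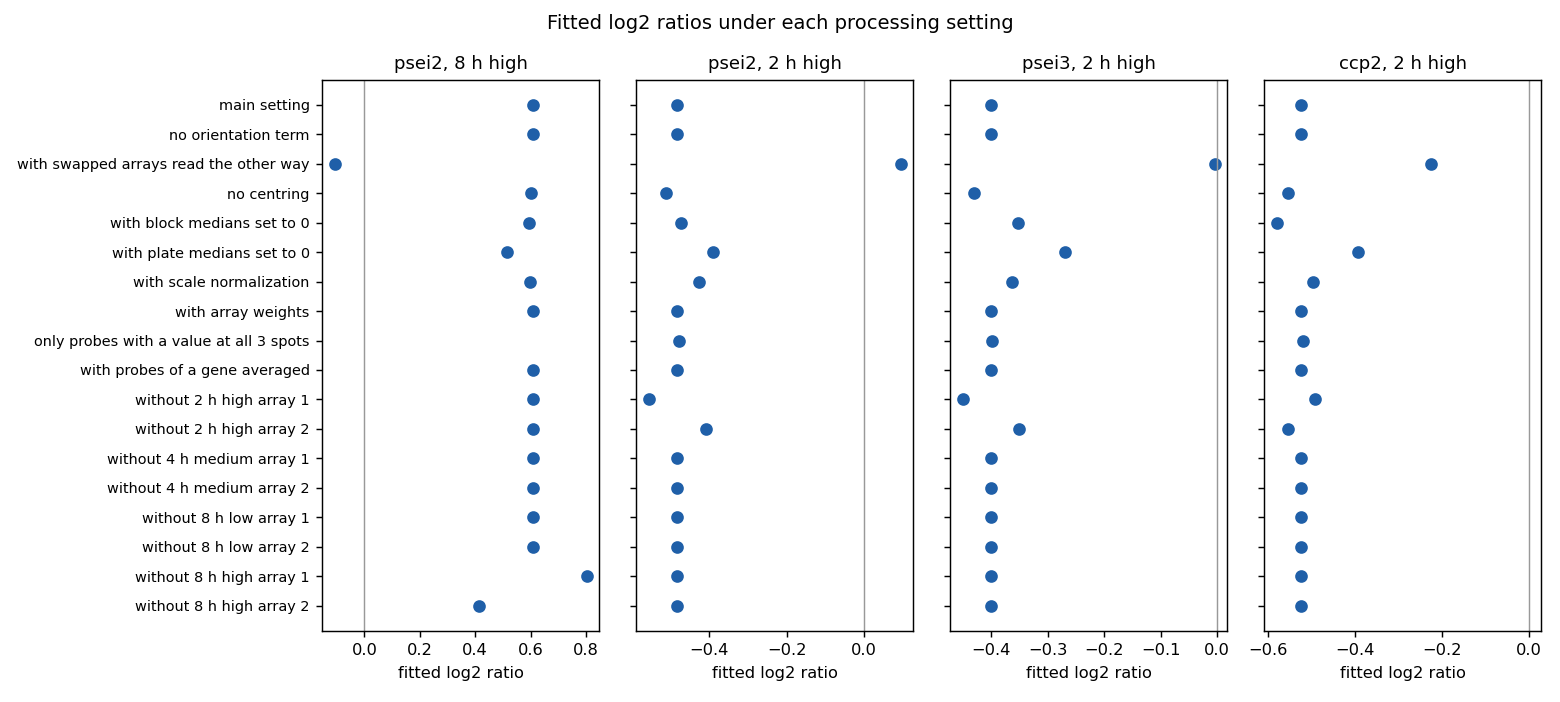
Fitted log2 ratios (horizontal axis) of the 4 values past the threshold at 8 h high or 2 h high are shown under each processing setting (rows). Values kept their sign in every row except where swapped arrays were read the other way, where psei2 crossed 0 in both regimes, and psei2 has no point at 8 h high where all 3 spots were required.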

How the data were processed

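The authors deposited log2 ratios per spot in 2 value tables. Background correction, normalization, filters and scanner are not given in the sources used here, and the log2 base was read from the deposited values, since log2 of quotients of whole numbers up to 40 matched 8.33% to 42.6% of the values an array holds more than once, and natural logs matched 0%. Every 3 consecutive spots were averaged as 1 probe (5640 and 5760 probes), and each array was centred on its median. Equal columns (tolerance 1e-06) were used once. Names came from the platform annotation (399 and 404 probes with 1 symbol, 5239 and 5354 unnamed), matched by gene ID to Zm-B73-REFERENCE-NAM-5.0 (314 of 329 genes).

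Regimes were fitted together in limma 3.58.1 (R 4.3.3), as were adult leaf with CA over PE, each with a probe-wise term for channel orientation, moderated tests and Benjamini-Hochberg adjustment over all probes. The regime fit has 3 residual and 44.4 prior degrees of freedom, so its SE is not the spread of the 2 arrays of a regime. The second fit has 1 residual degree of freedom and an infinite prior, so every probe has 1 SE. Same-numbered arrays share their channel order per the labels, and their deviations correlated at 0.196 to 0.557 between regimes and 0.113 in the organ set, so the number was kept as the block. The genes and lists were chosen with earlier results of these data known. The named genes are the members, the 3 most alike in pattern, and listed genes past the threshold or in lists of 5 or fewer. The list of ubiquitin and proteasome genes gave no match that was kept, since its 1 symbol match, pbf1, is a transcription factor. The code was tested on simulated data.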

Additional observations from a re-analysis of the deposited data

Results flagged for a closer look

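Values of 4 probes, those of psei2, psei3 and ccp2 and the plate 39 probe of psei1, took opposite signs in 2 regimes on every array. This drew attention to them, but the share of all probes that did so was not counted, so it does not set them apart. The difference between regimes was not tested for any, since the 2 h high and 8 h high regimes put the genes forward. For psei2 all arrays of 8 h high lay above the array median and all arrays of the other regimes below it. The difference was 1.09 for 8 h high minus 2 h high, 0.73 for 8 h high minus 4 h medium and 0.84 for 8 h high minus 8 h low. For 8 h high minus 2 h high it was 0.61 for psei3 and 0.77 for ccp2. The plate 39 probe of psei1 gave 0.15 for 4 h medium minus 2 h high, with both arrays of each within 0.13 of the median. The plate 23 probe of psei1 was below the median on every array of both these regimes.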

How the results depend on the processing

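With swapped arrays read the other way psei2 was 0.095 at 2 h high and -0.11 at 8 h high, its difference was -0.20 for 8 h high minus 2 h high and -0.22 for 8 h high minus 8 h low, and that of psei3 was -0.20 for 8 h high minus 2 h high. Under that reading 0 members passed at 2 h high and 0 at 8 h high, as did 0 of all probes. Without the replicate block (the orientation term) 0 passed at 2 h high, against 3, and 0 at 8 h high, against 1, while the share of all probes called was 7.15% against 13.7% and 0.861% against 3.78%. The block changed no other member count. With array weights 5 passed at 2 h high, where 50.5% of all probes did, and 2 at 4 h medium (12.9%). With plate medians set to 0, 2 passed at 2 h high (9.91%), with psei2 and psei3 no longer among them and a probe not called before added to ccp2. Requiring a value at all 3 spots left 0 at 8 h high, because psei2 could not be fitted there. Leaving out 1 array gave 0 to 3 at 2 h high, 0 to 1 at 8 h high and 0 to 1 at 8 h low, with the lone remaining array assumed to vary like the others. Values of uncalled probes changed sign 53 times, 20 of them with swapped arrays read the other way. Leaving out an array in the organ set left no residual degree of freedom and gives values with no test. The tables used here hold no intensities, so signal over background is unknown.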
